A study of Arabidopsis thaliana with 18 samples.

Results

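Histone genes of all classes were followed in root apices of Arabidopsis thaliana from Columbia (Col) and Landsberg erecta (Ler, which carries the erecta mutation), 2 ecotypes, over the first 2 h after phosphate was removed. The 41 genes were taken by locus from 32852 features that every library lists. They comprise 8 H4, 5 H3.1, 3 H3.3, 13 H2A, 9 H2B and 3 linker H1 genes, and the H2A genes divide into 4 canonical, 2 H2A.X, 3 H2A.W and 4 H2A.Z genes. All plants were wild type and grew for 7 days with 500 µM phosphate. Apices of about 0.5 cm were taken at 0 h, or 1 h or 2 h after a move to medium without phosphate, with 3 libraries in each of the 6 groups of ecotype and time. The treatment field of the 0 h libraries names no treatment, whereas the protocol of the series describes a move to fresh medium with phosphate for them. Plants moved to medium with phosphate and sampled 1 h or 2 h later were not analysed here, so the loss of phosphate and the transfer itself cannot be told apart. The design text calls the 3 libraries of a group biological replicates and does not say whether they came from separate batches of plants.

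A nucleosome wraps DNA around pairs of H2A, H2B, H3 and H4, and linker H1 binds where the DNA enters and leaves it. Replication-dependent histones (H4, H3.1, canonical H2A and H2B) are made mainly in S phase to package new DNA, so their messages are abundant in dividing tissue such as the root meristem. Replacement histones (H3.3 and H2A.Z) are made through the cell cycle and are exchanged into chromatin outside replication. Plant histone messages carry poly(A) tails, unlike most of those of animals, so poly(A) selection retains them. In bulk apices, fewer cells of a type and less RNA per cell cannot be told apart.

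Total counts were 23451068 to 29277597 per library, and the 41 genes held 0.254% to 0.473% of the counts. Of the 41 genes, 40 passed the filter on low counts, as did 20599 of all features. HTA4 (AT4G13570), an H2A.Z gene, had no count in any of the 18 libraries, which allows a level of up to 0.102 to 0.131 CPM (counts per 1e6 counts of the library) in a library at the limit of 3 counts. Endodermis markers (CASP1, CASP2 and CASP4) summed to 457 to 728 CPM in Col at 0 h, 275 to 335 CPM in Col at 2 h and 132.9 to 346 CPM in Ler. Root meristem markers (PLT1, PLT2, WOX5, SCR and SHR) summed to 109 to 184 CPM, and the shoot markers RBCS1A, CAB1, LHCB2.1 and STM to 5.11 to 56.6 CPM, with STM below the filter.

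Levels per length, summed over 2 to 9 genes, differed between histone families, and H3.3 lay among the replication-dependent families. Summed over genes and averaged over the 18 libraries, CPM per kilobase of exon (RPKM) were 870 for H2B, 669 for H4, 592 for H3.3, 448 for H3.1, 443 for canonical H2A, 351 for H1, 251 for H2A.W, 181 for H2A.Z and 178 for H2A.X. The 3 H3.3 genes thus held more message per length than the 5 H3.1 genes in these apices. The highest single genes were AT5G10980 (H3.3) with 252 RPKM, HTA10 (AT1G51060, canonical H2A) with 251 RPKM, AT1G06760 (H1) with 236 RPKM and HTB11 (AT3G46030, H2B) with 222 RPKM. The lowest with counts was HIS1-3 (AT2G18050), a linker histone known to be induced by drought and abscisic acid, with 2.46 RPKM.

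Gene structure differed between histone families as well. In the RefSeq annotation, 21 of 22 H4, H3.1 and H2B genes had 1 exon in their longest transcript, and 0 of 4 canonical H2A, 0 of 3 H3.3, 0 of 3 H1 and 0 of 9 variant H2A genes did. Within 6 protein-coding genes of another member lay 16 of the 41 genes. The H3.1 genes AT5G10390 and AT5G10400 are direct neighbours, as are the H3.3 genes AT4G40030 and AT4G40040. Of the 41 genes, 16 shared some stretch of 50 bases with another gene, 8 of them over more than 20% of their exons, and 9 overlapped another locus. Among those over 20%, the H4 genes AT1G07660, AT3G45930 and AT3G46320 shared most with another H4 gene. The others, AT3G27360, GAMMA-H2AX (AT1G54690), HTA12, HTB9 and AT1G06760, shared most with a locus that overlaps them. The rule for counting reads that match more than 1 gene is not given in the sources used here, so levels of such genes are uncertain.

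The sequences upstream of the genes carry 2 elements known from plant histone promoters, the octamer CGCGGATC and the hexamer ACGTCA. Both were searched on both strands in the 250 bases before the annotated start (GATCCGCG and TGACGT on the other strand). The octamer stood before 37 of 27438 protein-coding genes (0.135%) and before 10 of the 41 histone genes, which were thus 27.0% of its carriers. It stood before 3 of 5 H3.1, 2 of 8 H4, 2 of 4 canonical H2A, 1 of 3 H3.3, 1 of 3 H2A.W and 1 of 3 H1 genes, and before 0 of 9 H2B genes. The hexamer stood before 7 of 9 H2B genes (77.8%), 2 of 5 H3.1 genes (40%) and 1 of 3 H3.3 genes (33.3%), against 7.69% of all protein-coding genes. It stood before 0 of 8 H4 genes and before none of the canonical H2A, H2A.Z, H2A.X, H2A.W and H1 genes. The E2F-type letters TTTGGCGC stood before 2 of 8 H4 genes, against 0.361% of all genes. These 2 genes, AT3G45930 and AT3G46320, have nearly identical upstream sequences. Another E2F-type site, TTTCCCGC, stood before 0 of 26 replication-dependent, 0 of 7 replacement and 0 of 8 other histone genes, against 0.62% of all genes. From RefSeq (TAIR10.1), 6 promoters are shown 5′ to 3′ in the direction of the gene, because 5 belong to octamer carriers that passed a test and 1 is the H2B gene with the highest level. Capitals mark the octamer on either strand in the first 5, none of which holds the hexamer, and the hexamer in HTB11.
AT5G59690 (H4), chr5:24051224-24051473, plus strand: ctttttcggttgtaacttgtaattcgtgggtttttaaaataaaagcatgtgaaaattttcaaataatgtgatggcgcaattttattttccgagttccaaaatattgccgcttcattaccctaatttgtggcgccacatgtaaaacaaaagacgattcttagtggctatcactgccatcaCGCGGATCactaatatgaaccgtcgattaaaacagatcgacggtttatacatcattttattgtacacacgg
AT5G65360 (H3.1), chr5:26120582-26120831, minus strand: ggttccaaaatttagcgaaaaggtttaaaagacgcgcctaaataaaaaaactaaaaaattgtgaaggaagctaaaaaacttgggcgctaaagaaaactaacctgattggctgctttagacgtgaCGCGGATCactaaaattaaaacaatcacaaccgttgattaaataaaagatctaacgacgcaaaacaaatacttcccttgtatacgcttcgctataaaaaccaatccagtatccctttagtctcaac
HTA13 (canonical H2A), chr3:7229140-7229389, plus strand: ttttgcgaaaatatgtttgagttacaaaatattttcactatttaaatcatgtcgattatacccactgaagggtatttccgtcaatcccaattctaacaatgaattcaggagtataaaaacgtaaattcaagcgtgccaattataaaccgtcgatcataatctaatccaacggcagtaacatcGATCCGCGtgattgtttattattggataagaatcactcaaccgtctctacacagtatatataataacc
AT4G40040 (H3.3), chr4:18558946-18559195, minus strand: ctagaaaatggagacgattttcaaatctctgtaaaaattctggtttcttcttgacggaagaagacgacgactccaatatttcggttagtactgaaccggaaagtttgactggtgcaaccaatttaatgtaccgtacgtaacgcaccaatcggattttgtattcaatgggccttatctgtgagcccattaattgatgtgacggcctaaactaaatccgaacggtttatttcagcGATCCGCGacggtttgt
AT1G06760 (H1), chr1:2077768-2078017, minus strand: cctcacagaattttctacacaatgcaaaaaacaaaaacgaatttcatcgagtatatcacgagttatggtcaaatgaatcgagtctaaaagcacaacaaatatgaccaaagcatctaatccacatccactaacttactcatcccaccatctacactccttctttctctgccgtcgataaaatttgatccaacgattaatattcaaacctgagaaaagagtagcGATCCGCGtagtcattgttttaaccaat
HTB11 (H2B), chr3:16914132-16914381, minus strand: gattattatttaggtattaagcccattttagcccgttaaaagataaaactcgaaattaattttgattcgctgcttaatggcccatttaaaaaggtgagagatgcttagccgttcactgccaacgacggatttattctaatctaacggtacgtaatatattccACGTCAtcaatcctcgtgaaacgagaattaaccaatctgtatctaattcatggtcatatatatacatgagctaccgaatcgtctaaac
The octamer lies 71 bases before the start in AT5G59690, 126 in AT5G65360, 68 in HTA13, 17 in AT4G40040 and 28 in AT1G06760, counted from its first base as printed. Of the 10 histone genes that passed the test in any comparison, 5 carry the octamer, as do 5 of the other 31. A match of letters is a description of the window and says nothing of binding.

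Among replication-dependent histones no gene passed the test against 0 h within an ecotype when libraries were taken as unpaired, and their summed level was lowest on average in Ler at 2 h. Their 26 genes summed in Col to 1884, 2898 and 1714 CPM at 0 h, to 2095, 2630 and 1933 CPM at 1 h, and to 2157, 2396 and 1676 CPM at 2 h. In Ler the sums were 2359, 1881 and 1930 CPM at 0 h, 2543, 2133 and 1674 CPM at 1 h, and 1949, 1484 and 1359 CPM at 2 h. The 3 times overlapped in Col, and in Ler the highest 2 h library reached above the lower 2 of the 0 h libraries. The 7 replacement genes summed to 892, 961 and 827 CPM at 0 h and 851, 864 and 730 CPM at 2 h in Col. In Ler they summed to 936, 785 and 774 CPM at 0 h and 805, 731 and 699 CPM at 2 h.

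**Figure D1:**
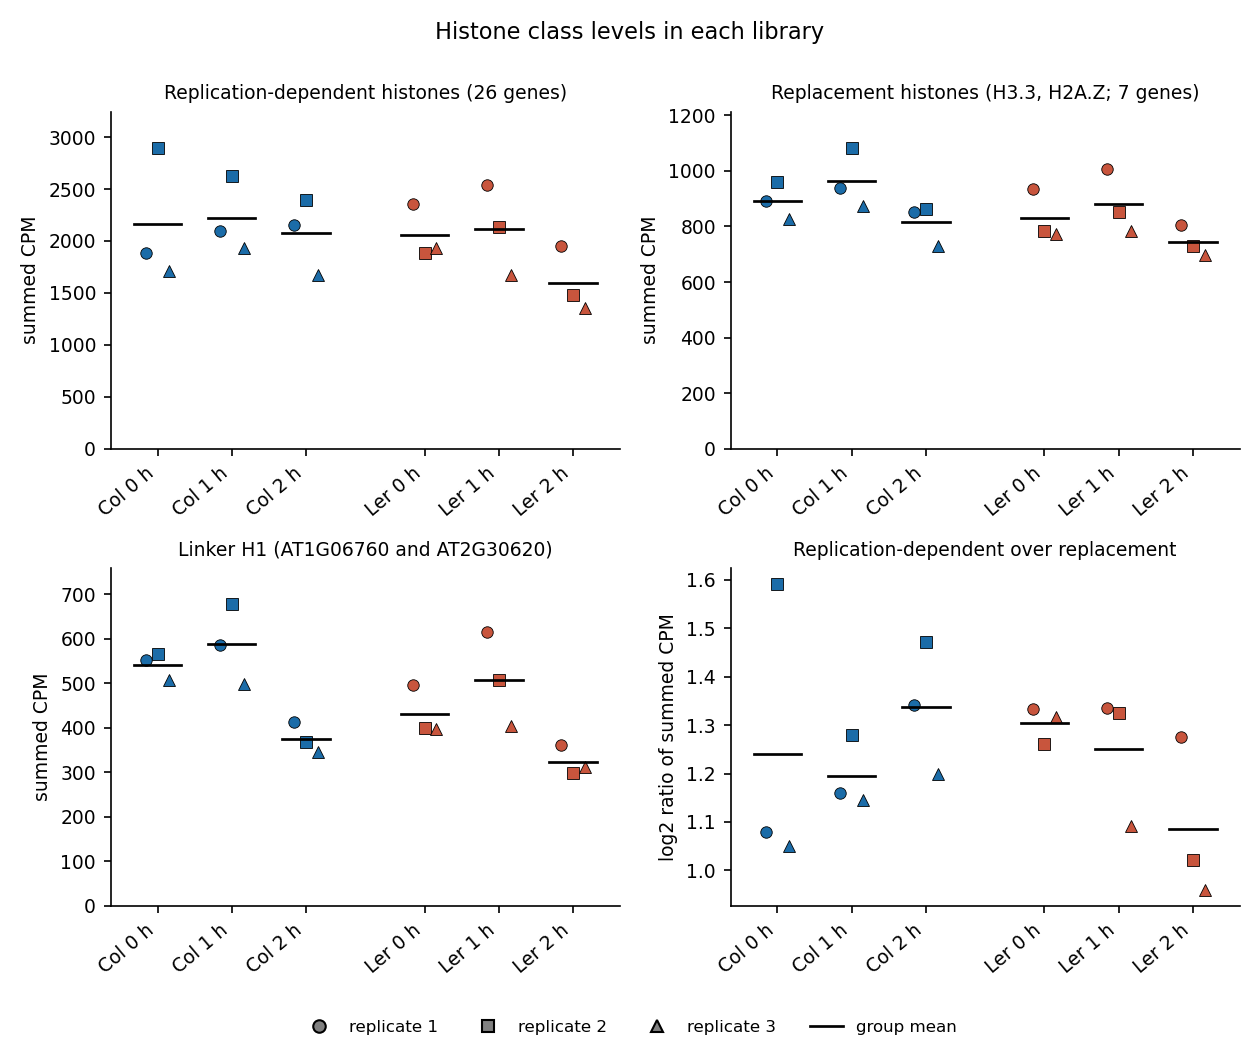
Levels in each of the 18 libraries, as summed CPM, of replication-dependent genes, replacement genes and the H1 genes AT1G06760 and AT2G30620. The panel at bottom right gives the log2 ratio of replication-dependent to replacement sums, on an axis that does not start at 0. Points are libraries, marked by replicate number, and bars are group means. The ratio is lowest on average in Ler at 2 h, 1.09, and the sum of these H1 genes is lower at 2 h than at 0 h in both ecotypes.

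The ratio of the summed replication-dependent to the summed replacement CPM was taken within each library, so that library scaling cancels. On the log2 scale it was 1.24 ± 0.30 (SD, n = 3) at 0 h, 1.19 ± 0.07 at 1 h and 1.34 ± 0.14 at 2 h in Col, and 1.304 ± 0.04, 1.25 ± 0.14 and 1.09 ± 0.17 in Ler. In Ler it was 0.22 lower at 2 h than at 0 h as a difference of means, against a pooled SD of 0.12, and the 2 h libraries at 1.28, 1.02 and 0.96 overlapped the 0 h libraries at 1.33, 1.26 and 1.32. In Col it was 0.10 higher, less than the pooled SD of 0.24. The difference between the ecotypes in the 2 h change was −0.32, against a pooled SD of 0.19. No p is given for this ratio, since it is a score over chosen genes.

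Gene by gene, with libraries taken as unpaired, edgeR's quasi-likelihood test called 0 of 40 histone genes in any comparison with 0 h within an ecotype. For Col at 1 h the background was 11.1% of features called, 1 histone gene was under an unadjusted p of 0.05, against 24.8% of all features, and DESeq2 called 0. For Col at 2 h the background was 6.39%, and 4 genes were under the unadjusted p, against 25.6% of all features. There DESeq2 called 3, namely HTA12, AT1G06760 and AT2G30620, and 11.8% of all features. For Ler at 1 h the background was 6.82%, 3 genes were under it, against 18.5% of all features, and DESeq2 called 0. For Ler at 2 h the background was 2.8%, 8 genes were under it, against 15.6% of all features, and DESeq2 called 0.

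Without Col 0 h replicate 2, edgeR called 1 histone gene in Col at 1 h, GAMMA-H2AX (AT1G54690), and 3 at 2 h, namely GAMMA-H2AX, HTA8 and HTA12. Of all features the same fit called 14.9% and 15.6%. Without Ler 1 h replicate 3 it called 1 in Ler at 1 h, AT2G30620, and 6.08% of all features. Col 0 h replicate 2 held the highest summed level of replication-dependent messages of all libraries.

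In Ler at 2 h most fold changes had the same sign. Of the 26 replication-dependent genes, 25 had a negative log2 change, with a median of −0.39 beside −0.03 over all features tested. The medians were −0.46 for H4, −0.38 for H3.1, −0.34 for H2B, −0.27 for canonical H2A and −0.13 for H3.3. The 3 tested H2A.Z genes had a median of −0.50, below that of every replication-dependent family. In 11 of the 26 genes every Ler 2 h library lay below every Ler 0 h library, against 11% of all features. The same held for 2 of 6 replacement genes and for 5 of the 8 H2A.X, H2A.W and H1 genes. In Col at 2 h the median of the 26 genes was −0.04, with 11 positive and 15 negative. There 1 of the 26 genes had all 2 h libraries below all 0 h libraries, against 13.5% of all features. So did 1 of 6 replacement genes and 3 of the 8 H2A.X, H2A.W and H1 genes.

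The difference of the 2 h change between ecotypes was negative for 24 of the 26 genes, with a median of −0.39 beside 0.02 over all features. Of the 40 histone genes, edgeR called 0 for this difference, as it called 0% of all features. Under an unadjusted p of 0.05 were 4, against 17.6% of all features, and DESeq2 called 0. Without Col 0 h replicate 2 the count was 5, namely AT5G10390 (H3.1), GAMMA-H2AX, HTA7, HTA8 and HTA11, and 6.51% of all features were called. For the difference at 1 h edgeR called 0 histone genes, with a background of 0.00485%, none under the unadjusted p, against 2.72% of all features, and 0 called by DESeq2.

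**Figure D2:**
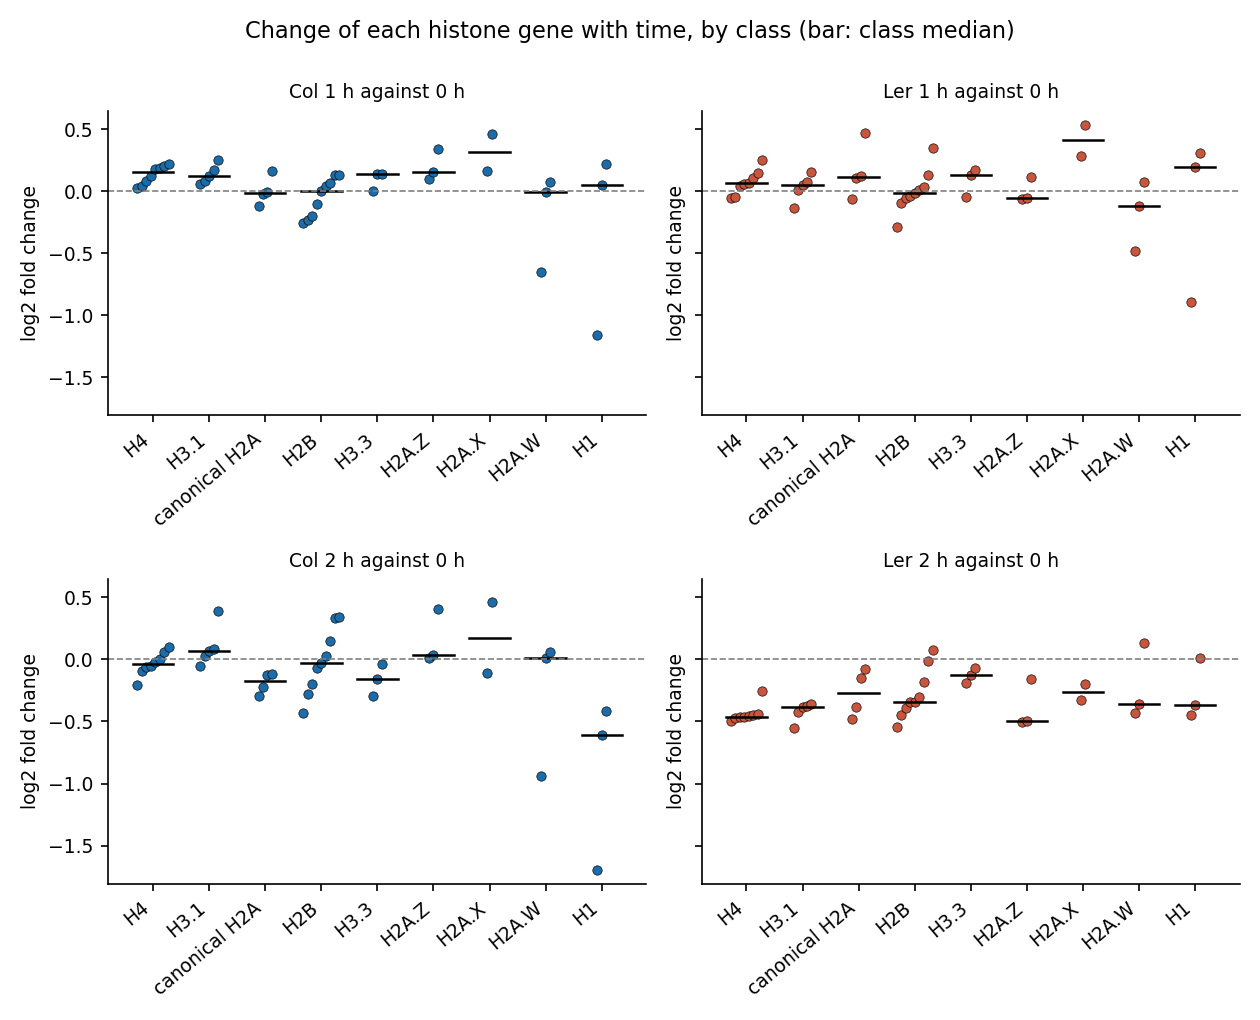
Log2 fold change of each tested histone gene at 1 h and 2 h against 0 h in Col (blue) and Ler (red), grouped by class. Each point is 1 gene and each bar the median of a class; in Ler at 2 h, 25 of 26 replication-dependent genes are below 0, and in Col at 2 h 15 are.

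Single genes show how far the replicates spread. HTB11 (H2B), a core histone gene, had 167, 240.4 and 158 CPM in Col at 0 h and 171, 182 and 141 CPM at 2 h. In Ler, HTB11 had 189, 160 and 155 CPM at 0 h and 161, 125 and 122.8 CPM at 2 h. The log2 change at 2 h was −0.19 (SE 0.18) in Col and −0.30 (SE 0.18) in Ler, with adjusted p of 0.520 and 0.473 from edgeR. The times overlapped in both ecotypes, and Col 0 h replicate 2 was the highest library.

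HTB9 (AT3G45980, H2B), next in level per length within its family, had 155, 213 and 137 CPM in Col at 0 h and 152, 145 and 120.0 CPM at 2 h. In Ler, HTB9 had 189, 144 and 155 CPM at 0 h and 142, 106 and 109 CPM at 2 h, a log2 change of −0.45 (SE 0.19, adjusted p 0.260). All Ler 2 h libraries lay below all Ler 0 h libraries. AT5G10980 (H3.3), the histone gene with the highest level per length, had 221, 170.4 and 172 CPM in Ler at 0 h and 195, 150.4 and 149 CPM at 2 h. Its groups overlapped, and its log2 change was −0.19 (SE 0.19, adjusted p 0.708).

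HTA10 (canonical H2A) had 241, 282 and 183 CPM in Col at 0 h and 234, 236 and 178 CPM at 2 h. In Ler, HTA10 had 235, 176 and 171 CPM at 0 h and 225, 136 and 163 CPM at 2 h. The groups overlapped in both ecotypes, and the log2 change at 2 h was −0.12 in Col and −0.15 in Ler (SE 0.22 for both), with adjusted p of 0.765 and 0.818.

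The H2A.Z genes, whose product is enriched at gene starts, were not called in either ecotype by edgeR with all libraries taken as unpaired. HTA8 (AT2G38810) had 11.1, 19.5 and 14.5 CPM in Col at 0 h and 19.3, 20.7 and 19.6 CPM at 2 h, a log2 change of 0.40 (SE 0.19, adjusted p 0.203). In Ler, HTA8 had 20.7, 20.003 and 23.5 CPM at 0 h and 16.4, 17.6 and 11.2 CPM at 2 h, a log2 change of −0.50 (SE 0.19, adjusted p 0.203). All Ler 2 h libraries lay below all Ler 0 h libraries, and the Col times overlapped through replicate 2 of 0 h.

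HTA11 (AT3G54560) had 40.1, 68.9 and 41.2 CPM in Col at 0 h and 51.3, 55.3 and 44.8 CPM at 2 h. In Ler, HTA11 had 52.3, 47.2 and 44.2 CPM at 0 h and 40.6, 34.2 and 27.0 CPM at 2 h, a log2 change of −0.50 (SE 0.20, adjusted p 0.231), with no overlap. HTA9 (AT1G52740), the H2A.Z gene with the highest level per length, had 94.4, 109 and 95.1 CPM in Ler at 0 h and 86.1, 103 and 77.8 CPM at 2 h, with overlap, and a log2 change of −0.16 (SE 0.14, adjusted p 0.655).

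The spread between replicates was widest for replication-dependent genes and followed the replicate number. The coefficient of variation within groups had a median of 22.3% over the 26 replication-dependent genes and 12.9% over the 6 replacement genes with counts. It was 16.0% over all features tested and 12.6% over the 12232 features of 10 to 300 CPM. In Col, replicate 2 held the highest replication-dependent sum at all 3 times, and in 18 to 23 of the 26 genes it was the highest of its group. In Ler, replicate 1 held it at all 3 times, in 23 to 25 of the 26 genes. The highest library exceeded the lowest of its group by a factor of 1.25 to 1.69 for the replication-dependent sum and 1.15 to 1.28 for the replacement sum. AT2G28720, an H2B gene, was lowest in replicate 2 of every group, with 41.2, 17.8 and 33.7 CPM in Col at 0 h. S-phase and replication genes summed to 566, 744 and 664 CPM in Col at 0 h and 670.1, 777 and 791 CPM in Ler at 0 h, so in Ler at 0 h replicate 1 was their lowest library.

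The clearest change with time was in linker H1, which compacts chromatin between nucleosomes. AT1G06760 had 344, 335 and 309 CPM in Col at 0 h, 355, 392 and 274 CPM at 1 h, and 249.8, 202 and 197 CPM at 2 h. In Ler, AT1G06760 had 314, 236 and 236 CPM at 0 h, 378, 286 and 234 CPM at 1 h, and 223, 168 and 185 CPM at 2 h. In both ecotypes all 2 h libraries were below all 0 h and all 1 h libraries. Averaged over ecotypes it fell by 0.53 on the log2 scale from 0 h to 2 h (SE 0.13, edgeR adjusted p 0.0194) and by 0.65 from 1 h to 2 h (SE 0.13, adjusted p 0.00736). Its exons share 39.2% of their stretches of 50 bases with the overlapping locus AT1G04503, so reads may have been split between them.

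AT2G30620, the other main H1 gene, had 207, 229.9 and 199 CPM in Col at 0 h, 232, 286 and 224 CPM at 1 h, and 163, 165 and 149 CPM at 2 h. In Ler, AT2G30620 had 181, 164 and 162 CPM at 0 h, 237, 220.3 and 169 CPM at 1 h, and 138, 129 and 126 CPM at 2 h. The 2 h libraries were the lowest 3 of each ecotype, with no overlap. Averaged over ecotypes it fell by 0.39 from 0 h to 2 h (SE 0.09, adjusted p 0.0120) and by 0.65 from 1 h to 2 h (SE 0.09, adjusted p 0.000409). It rose by 0.26 from 0 h to 1 h (SE 0.09, adjusted p 0.0461), a call lost in 8 of 12 fits that each left out 1 library. Those libraries were Col 0 h replicates 1 and 3, Col 1 h replicate 2, all 3 Ler 0 h libraries, and Ler 1 h replicates 1 and 2, and the adjusted p ranged from 0.0120 to 0.157. Neither fall from 0 h to 2 h was called within 1 ecotype by edgeR with libraries taken as unpaired. For AT1G06760 the adjusted p was 0.0587 in Col and 0.241 in Ler, and for AT2G30620 it was 0.0585 in Col and 0.138 in Ler. Of the endodermis markers, CASP2 was called lower in Col at 2 h (1 of 3 genes), beside 6.39% of all features called. In Ler at 2 h 0 of these 3 markers were called, beside 2.8% of all features. Their part in the H1 result was not tested.

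**Figure D3:**
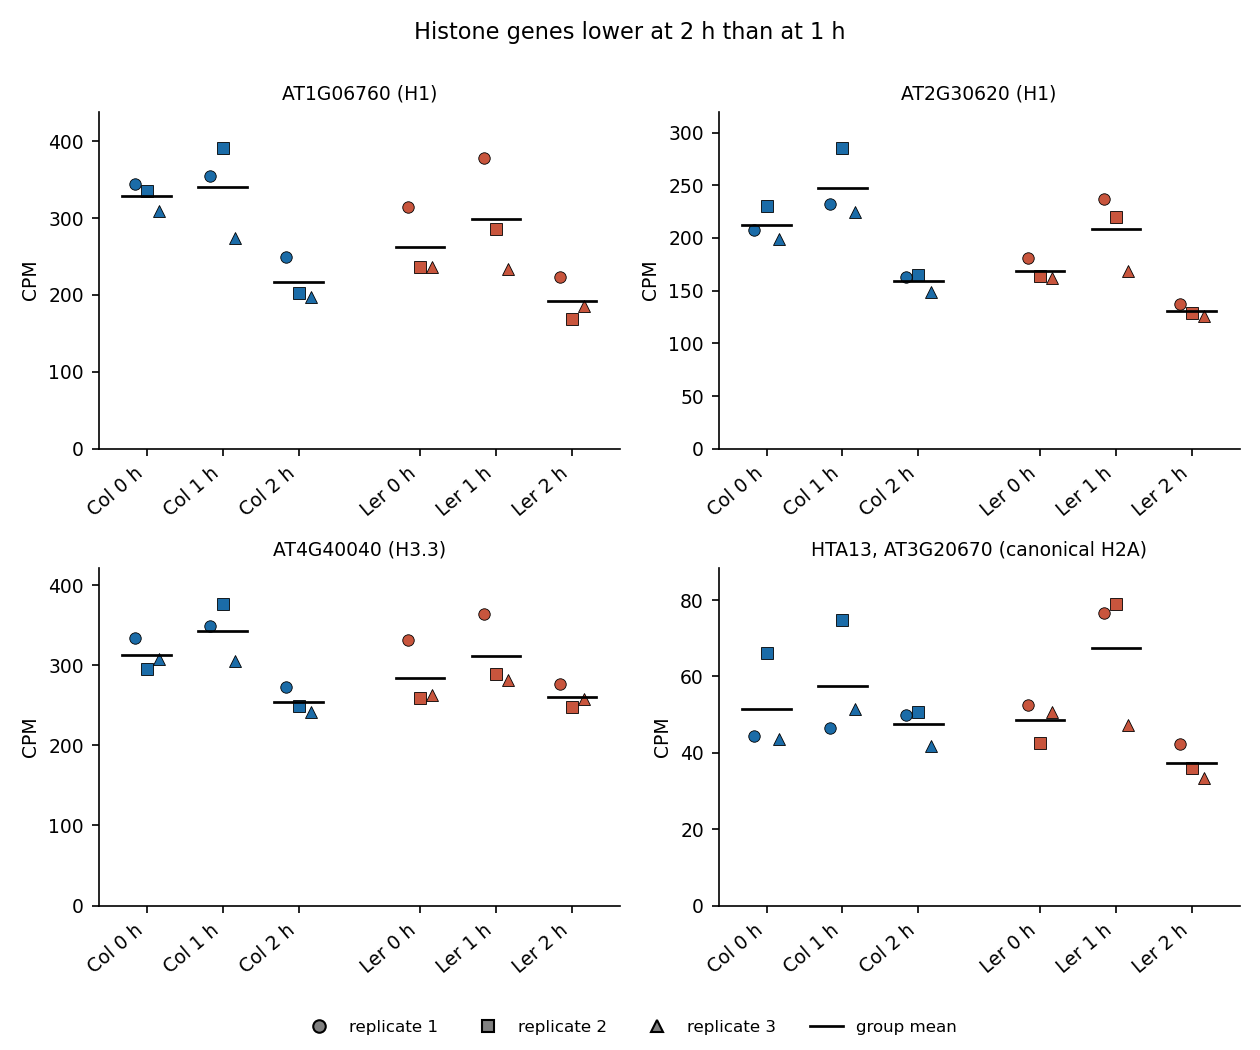
Depth-scaled level in CPM in each library of the 4 histone genes that fell from 1 h to 2 h averaged over ecotypes. Points are libraries, marked by replicate number, and bars are group means; the 2 H1 genes in the top row have all 2 h libraries below all other libraries of their ecotype, while the H3.3 and H2A genes overlap with 0 h in at least 1 ecotype.

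From 0 h to 2 h averaged over ecotypes, these 2 H1 genes were the only calls among 40 histone genes, with a background of 8.63% of all features. From 1 h to 2 h there were 4 calls, all lower, with a background of 5.74%. The other two were AT4G40040 (H3.3) and HTA13 (canonical H2A). From 0 h to 1 h there were 2, AT2G30620 and HTA12 (H2A.W), with a background of 19.8%.

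AT4G40040 had 334, 295 and 308 CPM in Col at 0 h, 348, 376 and 306 CPM at 1 h, and 272, 249 and 242 CPM at 2 h. In Ler, AT4G40040 had 332, 259 and 263 CPM, then 363, 289 and 282 CPM, then 276, 248 and 258 CPM. The 2 h libraries lay below the 1 h libraries in both ecotypes and overlapped 0 h in Ler. It fell by 0.34 from 1 h to 2 h (SE 0.09, adjusted p 0.0317). This call was lost in 6 of 12 fits that each left out 1 library, namely Col 1 h replicate 2, Col 2 h replicates 2 and 3, Ler 1 h replicate 1, and Ler 2 h replicates 2 and 3. The adjusted p ranged from 0.0217 to 0.0990 over all 12. The other two H3.3 genes differed by −0.33 and −0.03 and were not called.

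HTA13 had 44.4, 66.1 and 43.7 CPM in Col at 0 h, 46.4, 74.8 and 51.5 CPM at 1 h, and 49.9, 50.8 and 41.7 CPM at 2 h. In Ler, HTA13 had 52.6, 42.7 and 50.8 CPM, then 76.6, 78.9 and 47.2 CPM, then 42.3, 36.1 and 33.5 CPM. The 2 h libraries were below the 1 h libraries in Ler and overlapped them in Col. It fell by 0.57 from 1 h to 2 h (SE 0.15, adjusted p 0.0405), and the call was lost without any 1 of 9 of the 12 libraries, all but Col 1 h replicates 1 and 3 and Ler 1 h replicate 3. It shares 11.1% of its 50-base stretches with HTA10.

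HTA12 (AT5G02560) codes for an H2A.W, a variant that marks heterochromatin. It had 18.8, 12.8 and 12.5 CPM in Col at 0 h, 12.2, 9.10 and 6.801 CPM at 1 h, and 8.21, 8.30 and 6.45 CPM at 2 h. In Ler, HTA12 had 23.7, 14.1 and 13.8 CPM, then 15.4, 9.85 and 11.6 CPM, then 21.9, 14.1 and 20.5 CPM. In Col the 1 h and 2 h libraries were all below the 0 h libraries, and in Ler 2 h was back in the range of 0 h. Averaged over ecotypes it fell by 0.57 at 1 h (SE 0.19, adjusted p 0.0450), a call lost in 6 of 12 fits that each left out 1 library. They were Col 0 h replicate 1, Col 1 h replicates 2 and 3, Ler 0 h replicate 1, and Ler 1 h replicates 2 and 3. In Col at 2 h the log2 change was −0.94 (SE 0.27, adjusted p 0.0512). Its locus overlaps AT5G02570, an H2B gene, over 34.2% of its 50-base stretches, so its level is uncertain.

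Ler and Col differed in 7 of 40 histone genes when averaged over the 3 times, with a background of 32.7% of all features. At 0 h edgeR called 0, with a background of 17.7%, 2 genes under an unadjusted p of 0.05, against 31.5% of all features, and 1 called by DESeq2, AT2G30620. Without Col 0 h replicate 2, edgeR called 2 at 0 h, AT1G07820 (H4) and HTA8, and 22.3% of all features. Whether reads of both ecotypes were aligned to the same sequence is not stated, and the submitters' processing notes name TAIR10, a Col genome, for all libraries. An effect of sequence differences on these calls was not tested.

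Lower in Ler were 2 H4 genes, 1 H3.1 gene and 1 H1 gene. AT5G59690 (H4) had 101, 185 and 94.6 CPM at 0 h, 113, 186 and 116 CPM at 1 h, and 125, 137 and 95.0 CPM at 2 h in Col. In Ler, AT5G59690 had 111, 88.9 and 91.7 CPM, then 133, 111 and 78.2 CPM, then 84.1, 71.6 and 55.9 CPM. The ecotypes overlapped at 0 h and 1 h and did not at 2 h. Its log2 difference, Ler against Col over all times, was −0.50 (SE 0.16, adjusted p 0.0224).

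AT3G46320 (H4) had 27.7, 58.7 and 28.5 CPM, then 33.5, 49.6 and 35.4 CPM, then 40.3, 50.8 and 28.7 CPM in Col. In Ler, AT3G46320 had 34.0, 31.1 and 30.7 CPM, then 34.6, 34.0 and 23.7 CPM, then 28.6, 21.4 and 17.8 CPM. The difference of −0.48 (SE 0.16, adjusted p 0.0339) went with overlap at 0 h and 1 h, and at 2 h the highest Ler library was just below the lowest Col library. Of its exons, 27.9% of the 50-base stretches are shared with AT3G45930, another H4 gene, which was not called. AT5G65360 (H3.1) had 101, 168 and 97.3 CPM, then 118, 150.4 and 120.0 CPM, then 133, 144 and 106 CPM in Col, against 119.6, 97.5 and 104 CPM, then 122, 113 and 88.0 CPM, then 101, 82.1 and 66.9 CPM in Ler. The ecotypes overlapped at 0 h and 1 h and did not at 2 h, and the difference was −0.36 (SE 0.12, adjusted p 0.0333).

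The calls of AT3G46320 and AT5G65360 were both lost in 9 of 18 fits that each left out 1 library. For both genes these were Col 0 h replicate 2, Col 1 h replicate 2, Col 2 h replicates 1 and 2, Ler 0 h replicates 2 and 3, Ler 1 h replicate 3, and Ler 2 h replicates 2 and 3. Without Col 0 h replicate 2 the difference was −0.33 for AT3G46320 and −0.25 for AT5G65360. AT2G30620 (H1) differed by −0.28 (SE 0.07, adjusted p 0.00627), and its Ler libraries were below the Col libraries at 0 h and 2 h and overlapped them at 1 h.

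**Figure D4:**
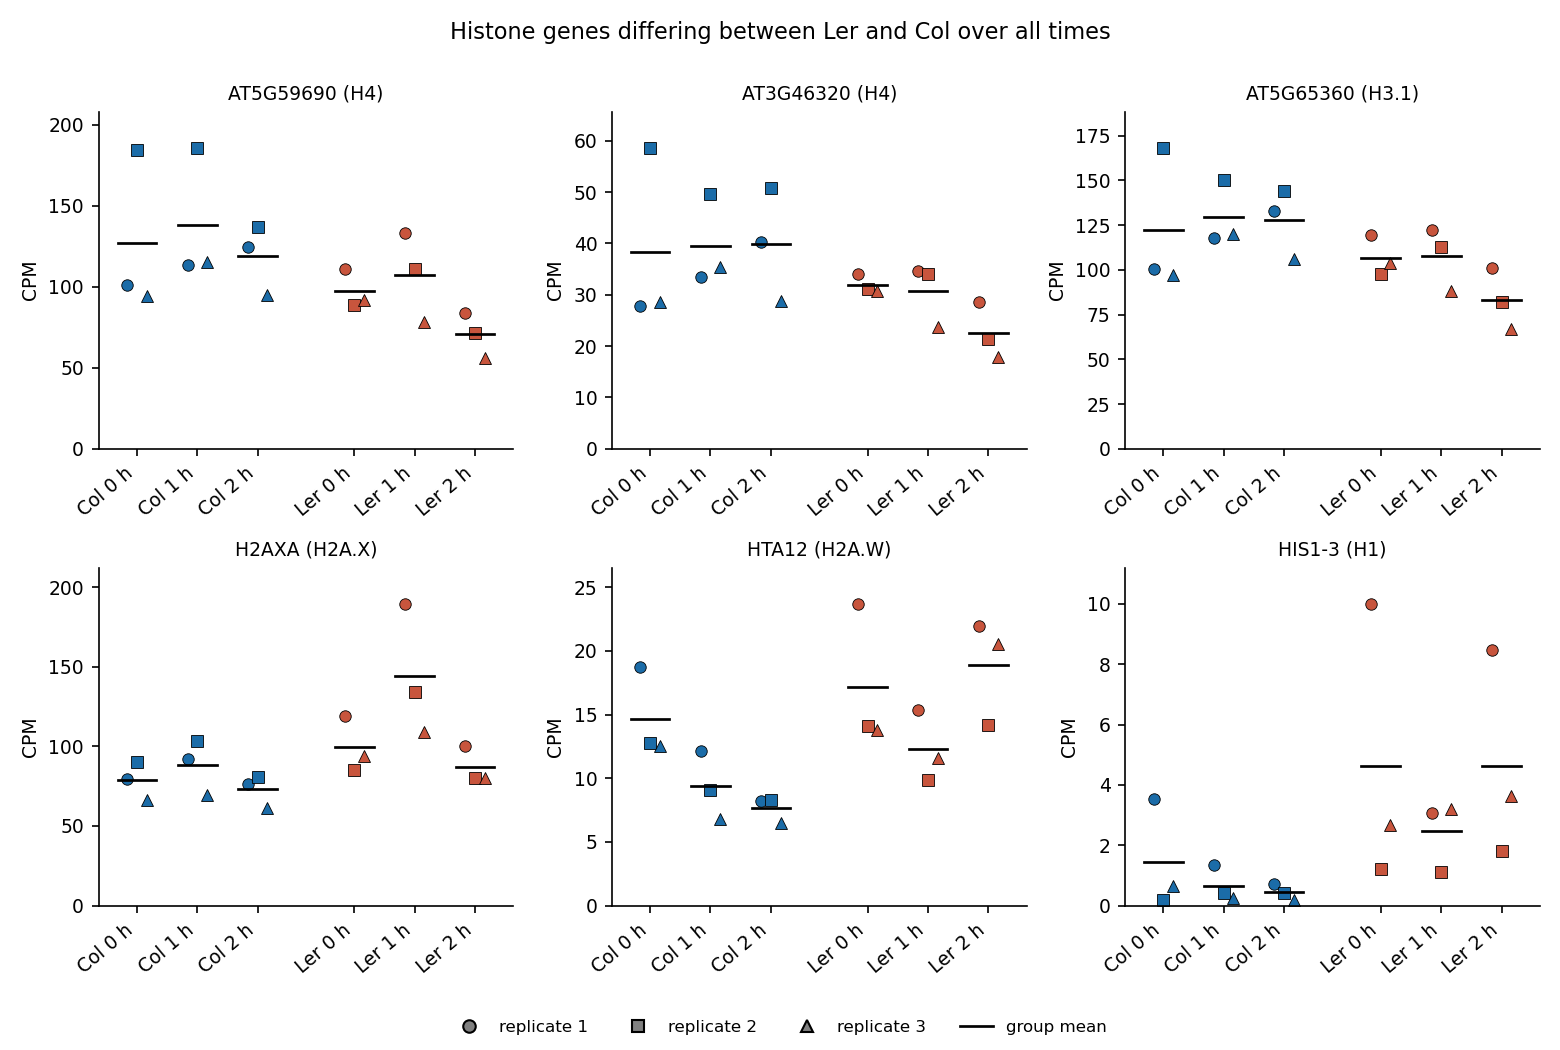
Depth-scaled level in CPM in each library of 6 of the 7 histone genes that differed between Ler and Col over all times; the seventh, AT2G30620, is in the plot of genes that fell from 1 h to 2 h. Points are libraries, marked by replicate number, and bars are group means; the top row is lower in Ler, with Col replicate 2 (squares) the highest Col library, and the bottom row is higher in Ler.

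Higher in Ler were 3 variant genes. H2AXA (AT1G08880), an H2A.X of the kind phosphorylated at DNA breaks, had 79.7, 90.2 and 66.5 CPM, then 92.0, 103 and 69.5 CPM, then 76.7, 80.9 and 61.5 CPM in Col. In Ler, H2AXA had 119, 85.1 and 94.3 CPM, then 189, 134 and 109 CPM, then 100.1, 80.0 and 80.2 CPM. The ecotypes were apart at 1 h, and the difference was 0.43 (SE 0.12, adjusted p 0.0101). HTA12 was higher by 0.64 (SE 0.15, adjusted p 0.00454), with the ecotypes apart at 2 h, and the overlapping AT5G02570 was also higher, by 1.32 (SE 0.39, adjusted p 0.0161).

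HIS1-3 had 3.54, 0.17 and 0.65 CPM, then 1.35, 0.40 and 0.24 CPM, then 0.72, 0.42 and 0.19 CPM in Col, from 4 to 81 counts. In Ler, HIS1-3 had 9.98, 1.21 and 2.66 CPM, then 3.07, 1.13 and 3.22 CPM, then 8.49, 1.80 and 3.63 CPM. The ecotypes overlapped at 0 h and 1 h and were apart at 2 h, and the difference was 2.32 (SE 0.57, adjusted p 0.00496). Of 3 shoot markers tested, 2 were called higher in Ler over all times, beside 32.7% of all features. They were RBCS1A by 1.67 (SE 0.30, adjusted p 0.000435) and LHCB2.1 by 1.79 (SE 0.36, adjusted p 0.00115), and CAB1 was not called. Replicate 1 held the highest shoot sum of every group, 31.8 CPM in Col at 0 h and 56.6 CPM in Ler at 0 h. HIS1-3 was also highest in replicate 1 except in Ler at 1 h, where it was highest in replicate 3. The part of the shoot markers in the HIS1-3 result was not tested.

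Among 8 further histone genes, 5 passed the filter. Of these AT1G13370, an H3 gene with 0 to 0.62 CPM over all libraries, was higher in Ler by 1.74 (SE 0.36, adjusted p 0.00142). HTR11 (AT5G65350), also an H3 gene, was lower by 2.19 (SE 0.27, adjusted p 1.19e-05). AT5G02570, given above, is in this list and was also called higher. In this comparison, Ler against Col over all times, 32.7% of all features were called. HTR12, the centromeric H3, was not called, with 0.16 (SE 0.09, adjusted p 0.186). Of 22 histone chaperones and readers, 4 were higher and 3 lower in Ler over all times, beside the 32.7% of all features called in this comparison. The lowest adjusted p was that of FAS2, a subunit of the chromatin assembly factor that loads H3 and H4 behind the replication fork, at 1.32 (SE 0.07, adjusted p 8.07e-10). NAP1;3, a chaperone of H2A and H2B, differed by −0.36 (SE 0.06, adjusted p 0.000181), SPT16, which moves H2A and H2B ahead of polymerases, by −0.19 (SE 0.04, adjusted p 0.00384), and TSK, which reads H3.1, by −0.36 (SE 0.10, adjusted p 0.00871).

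Cell cycle genes gave the setting of the core histones. Of 27 S-phase and replication genes, 2 were called in Col at 2 h, where 6.39% of all features were. They were PCNA1, the sliding clamp of DNA polymerase, up by 0.57 (SE 0.11, adjusted p 0.0129), and RNR1, the large subunit of ribonucleotide reductase, up by 0.44 (SE 0.11, adjusted p 0.0287). The median of the 27 was 0.32 in Col at 2 h and −0.13 in Ler, where 0 were called and DESeq2 was not counted for this list. In Ler 1 of the 27 was under an unadjusted p of 0.05 from edgeR, against 15.6% of all features. Of 13 G2/M genes, 2 fell in Ler at 2 h, where 2.8% of all features were called. They were the mitotic cyclin CYCB1;2 by 0.65 (SE 0.14, adjusted p 0.0189) and KN, the cytokinesis syntaxin, by 0.52 (SE 0.12, adjusted p 0.0253). All 13 were negative there, with a median of −0.52, against a median of −0.01 in Col at 2 h. Root cap markers (SMB, BRN1 and BRN2) had a median of −0.57 in Ler at 2 h and root hair markers one of 0.50. EdgeR called 0 of 3 and 0 of 4, and 2 of each were under an unadjusted p of 0.05, against the same 15.6% of all features. Of the root meristem markers, 3 of 5 were called higher in Col at 2 h and 1 of 5 in Ler, beside the same 6.39% and 2.8% of all features. The part of any of these markers in the histone levels was not tested. The median of the 26 replication-dependent genes was −0.39 in Ler at 2 h, between those of the S-phase and the G2/M lists, and −0.04 in Col at 2 h, below both.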

How the data were processed

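Poly(A)-selected, stranded, paired-end RNA-seq was made from root apices, per the labels' protocols. The authors deposited raw counts per gene, 1 table per library. TopHat2, Bowtie2 and TAIR10 are named in the submitters' processing notes, and the counting tool, its use of strand and its handling of reads with several matches are not given in the sources used here. Tables of Col libraries list 33602 features and those of Ler 32852, and the 32852 in all 18 libraries were used. After edgeR's filter (minimum count 10) 20599 were tested.

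Counts were scaled by TMM and fitted with 1 mean per group by edgeR's quasi-likelihood test (edgeR 4.0.16, limma 3.58.1, R 4.3.3), with Benjamini-Hochberg adjustment over all features tested and a threshold of 0.05. DESeq2 1.42.0 was an alternative, with other scalings, filters, blocks and libraries left out. Fold changes are log2, and ± is the SD over 3 libraries. RPKM used the summed exon length in RefSeq. The scripts were tested on simulated data. Upstream sequences were read from RefSeq's TAIR10.1 genome, and all 41 loci matched.

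The members and lists were chosen with earlier results of these data known. Values in single libraries are given for histone genes past the threshold in a comparison within an ecotype, of the ecotypes over all times or of the difference in change, up to 4 per class, and otherwise for the 2 with the highest level per length. For HTB11, HTB9, HTA10, HTA8 and HTA11 the 1 h libraries are left out. For AT5G10980 and HTA9 only Ler at 0 h and 2 h is given, and for AT2G28720 only Col at 0 h. AT1G06760, HTA8 and AT2G28720 were added after their values were seen. From the other lists, up to 4 genes past the threshold in a comparison are named, by lowest adjusted p, and HTR12 was added after its value was seen. Replicate libraries are separate samples of a group, and p-values measure the spread between them. Totals of 23451068 counts or more leave counting error small for most histone genes followed by class. Exceptions are HIS1-3, HTA4 and the H2B gene AT3G09480, which had 67 to 181 counts. The lowest libraries of HTA12 and AT3G53650 (H2B) had 168 and 170 counts. Counting error is also not small for further histone genes of low level. These include AT1G13370 (0 to 0.62 CPM), AT5G02570 (0.12 to 1.89 CPM) and, in Ler, HTR11 (0.34 to 1.24 CPM).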

Additional observations from a re-analysis of the deposited data

How the results depend on the processing

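No called value changed sign. Of the 11 untested differences in the log2 ratio of replication-dependent to replacement sums, 3 kept 1 sign under every alternative run, Col at 2 h, Ler at 2 h and the difference between ecotypes at 2 h. The other 8 changed sign under at least 1, for example −0.14 to 0.13 for Col at 1 h. The ratio moved by less than 1 pooled SD under every alternative run but 1. Without Col 0 h replicate 2, the difference between ecotypes in its 1 h change went from −0.01 to −0.18, and leaving out each library in turn gave −0.18 to 0.088. Counts of histone genes called changed as follows outside the fits that leave out a library or use a block, and the cause was not tested. From 0 h to 1 h over both ecotypes the count of 2 became 1 with RLE size factors, 1 without a filter on low counts and 0 with only the libraries contrasted. Those fits called 19.8%, 15% and 17.8% of all features. In Col at 2 h the count of 0 became 3 with DESeq2 and 1 with a filter at a mean of 1 CPM (HTA12), beside 11.8% and 7.27% of all features. For Ler against Col at 0 h it became 1 with DESeq2, beside 19.3%. From 1 h to 2 h the 4 became 3 with only the libraries contrasted, where HTA13 was not called (adjusted p 0.0618), and 5 with DESeq2, which added H2AXA. The shares of all features there were 4.55% and 8.06%. Over all times the 7 differences between Ler and Col became 8 with DESeq2, which added HTA11, beside 32.8% of all features. Contrasts over all 6 groups have no fit with only the libraries contrasted.

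Leaving out 1 library at a time gave these counts of calls. Col had 0 to 1 at 1 h, beside 5.57% to 14.9% of all features, and 0 to 3 at 2 h, beside 1.3% to 15.6%. Ler had 0 to 1 at 1 h, beside 3.63% to 6.08%, and 0 to 0 at 2 h, beside 1.09% to 2.35%. Over both ecotypes it gave 0 to 3 at 1 h, 2 to 2 at 2 h and 2 to 5 from 1 h to 2 h. The shares of all features there were 15.4% to 23%, 5.8% to 9.32% and 3.42% to 7.31%. For Ler against Col it gave 0 to 2 at 0 h, beside 11.1% to 22.3%, and 5 to 9 over all times, beside 29% to 33.3%. For the difference in change it gave 0 to 0 at 1 h, beside 0.0048% to 0.00962%, and 0 to 5 at 2 h, beside 0% to 6.51%.

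The labels do not say that equal replicate numbers share a batch. As a hint from the data, 41 of 45 pairs of libraries with the same number had correlated deviations above 0.1 (mean 0.35, lowest 0.0057). The mean was −0.17 for pairs with different numbers, and 18 of 18 libraries correlated best with their own number. With a replicate block the counts became 2 and 5 for Col (1 h and 2 h) and 1 and 4 for Ler, beside 21.7%, 22.1%, 14.5% and 8.86% of all features. They became 4, 6 and 8 over both ecotypes (1 h, 2 h, and 2 h against 1 h), beside 29.8%, 18.1% and 12.5%. For Ler against Col they became 4 at 0 h and 14 over all times, beside 30.1% and 43.4%. With a replicate block within each ecotype they became 2 and 5 for Col, beside 24% and 25.9% of all features, and 3 and 16 for Ler, beside 15.7% and, for the latter, 2076 of 20599 features. They became 5, 9 and 16 over both ecotypes, beside 32.8%, 20% and 14.1%, and 5 for the difference in change at 2 h, beside 8.15%. The 16 in Ler at 2 h hold 12 of 26 replication-dependent genes, namely 7 H4 genes (HIS4, AT1G07820, AT3G45930, AT3G46320, AT3G53730, AT5G59690 and AT5G59970), the H3.1 gene AT1G09200, HTA2, and the H2B genes HTB4, HTB9 and AT2G37470. The others are HTA6, HTA11 and the H1 genes AT1G06760 and AT2G30620. The replication-dependent sum in Ler was lower at 2 h than at 0 h within each replicate number. This second block was not run for Ler against Col, where it leaves no error between libraries.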
